A study of Nannochloropsis oceanica with 12 samples.

Results

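The peaks described here are lactyllysine peaks that lie unusually close to another one on the chromosomes of Nannochloropsis oceanica, a unicellular marine alga. They were chosen by position alone, from the authors' deposited table of 5375 peaks that differed between nitrogen-deprived and nitrogen-replete cells. A peak was included when its start lay under 2200 bp from the start of the nearest other listed peak. Its midpoint also had to lie more than 50000 bp from the outermost listed positions of its chromosome. The choice gave 884 of the 5375 listed peaks, or 16.4%, and they formed 422 separate runs. Another 50 listed peaks met the distance limit near chromosome ends and were left out.

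All cells were of strain IMET1, and both conditions used cells washed and moved at an OD750 of 2.5 into fresh medium with nitrogen (replete) or lacking it (deprived) for 72 hours. Chromatin was precipitated with an antibody against L-lactyllysine, which gave 3 libraries per condition. The other 6 of the 12 libraries, 3 per condition, were made without antibody, and their values were not analysed here. The table holds 1 mean level per condition and peak, in reads that the authors had scaled. The decimals of these means gave back the whole reads of each library. The letters A, B and C stand for the libraries of a condition and are unrelated to culture numbers, which the table lacks.

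Lysine lactylation is the attachment of a lactyl group to a lysine side chain. On histones, the proteins around which DNA is wound, it has been described in mammalian cells as a mark that varies with lactate and is found at active genes. Nannochloropsis stores triacylglycerol when nitrogen is lacking, and the series asks how the mark differs between the conditions. The antibody recognises the modified residue on any protein. No genome sequence or nuclear gene annotation was used here, so peaks are given by chromosome, start and end as in the authors' deposited table. The sources used here do not name the genome build, and neither gene names nor sequences are attached to the peaks.

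Reads in the listed peaks differed greatly between the conditions. The deprived libraries held 1351261 to 1620064 recovered reads in the listed peaks and the replete libraries 19082 to 89564. The authors' scaling factors, by which reads had been divided, were 0.884 to 1.13 and did not even out that gap. Total library depth was not analysed here, and no source used here says whether a control was subtracted. A difference in reads between the conditions therefore depends on the scaling, whereas a ratio between peaks of 1 library does not. Among the tightly spaced peaks the deprived libraries held 197752 to 237169 reads and the replete libraries 4072 to 16278.

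Every listed peak was 401 bp wide, and no pair of starts was closer than 796 bp, so even the closest neighbours were separated by 395 bp. The tightly spaced peaks had a median distance to the nearest start of 1907 bp (quartiles 1689 and 2048). The other listed peaks had a median of 3734 bp. Only 10 tightly spaced peaks lay within 1000 bp of a neighbour and 86 within 1500 bp. Neighbouring pairs became more numerous with distance over this range, from 12 pairs at 1000 to 1200 bp to 45 at 1400 to 1600 bp and 178 at 2000 to 2200 bp. Counts then levelled off, with 198 pairs at 2200 to 2400 bp and 201 at 2600 to 2800 bp. The limit of 2200 bp thus cut through a continuous distribution, at the upper end of its rising part.

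**Figure D1:**
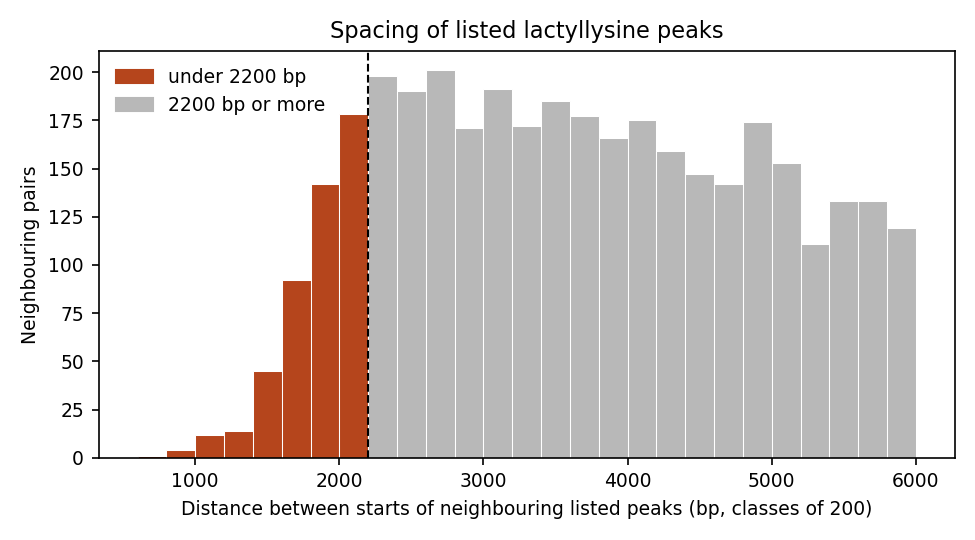
Number of neighbouring listed peak pairs (vertical axis) by the distance between their starts in classes of 200 bp (horizontal axis, up to 6000 bp), with the 2200 bp limit as a dashed line. The classes rise from 1 pair at 600 to 800 bp to 178 pairs at 2000 to 2200 bp and reach 198 in the next class.

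The values at the limit show how little separates both sides of it. Just inside were peak_812 and peak_813 on chromosome 12, from 518750 to 519150 and from 520948 to 521348, with starts 2198 bp apart. Peak numbers are those of the authors' deposited table. From library A to C, the left peak had 376, 356 and 322 deprived reads and the right peak 238, 229 and 194. Neither had any replete read. Just outside were peak_1737 and peak_1738 on chromosome 17, from 492680 to 493080 and from 494880 to 495280, with starts 2200 bp apart. They had 438, 340 and 325 and then 222, 171 and 163 reads in the deprived libraries, and the replete libraries had none except 19 reads of library A in peak_1738.

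Most runs were simple pairs. There were 386 runs of 2 peaks, 32 of 3 peaks and 4 of 4 peaks, and every tightly spaced peak belonged to 1 of them. Runs of 2 spanned a median of 2308.5 bp, runs of 3 a median of 4220.5 bp, and runs of 4 between 6053 and 6510 bp. Together they gave 462 close pairs, meaning neighbouring listed peaks that were both included and whose starts were under 2200 bp apart. These were 8.64% of the 5345 neighbouring pairs on all chromosomes. The row numbers of the table follow position and run to 5389 with 14 absent, so the place of the peaks that were tested and not listed can be read from them. None of the 14 fell inside a close pair, and 2 lay next to a tightly spaced peak.

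All 30 chromosomes held tightly spaced peaks, in unequal proportions. Their share of the listed peaks ran from 6.45% on chromosome 27, with 6 of 93 peaks, to 22.6% on chromosome 11, with 44 of 195. Chromosome 2 held the most, 70 of its 340 listed peaks, at 42.2 per Mb between its outermost peaks. Chromosome 30 had 4 of 59. The lowest shares after chromosome 27 were 6.72% on chromosome 24, 6.78% on chromosome 30 and 8.60% on chromosome 29. The 50000 bp margin removes a larger part of a short chromosome, and its contribution to these shares was not tested.

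The first comparison asked how the mark differed between deprived and replete cells at these peaks. In the authors' deposited table, 863 of the 884 had more signal in deprived than in replete cells, and 21 had less. Over all 5389 peaks tested there, 99.7% passed an FDR of 0.05, 98.9% as higher and 0.816% as lower in deprived cells. The higher share of 97.6% was therefore near the background, and the lower share of 2.38% was above it. Of the 21 lower peaks, 16 were among the 321 peaks under 1800 bp from a neighbour (4.98%). The other 563 tightly spaced peaks held 5 (0.888%), near the background. Among the 4491 other listed peaks, 23 were lower, or 0.512%, and away from chromosome ends 20 of 4063 were lower, or 0.492%. The 884 peaks thus held 47.7% of the 44 lower peaks of the table while making up 16.4% of its peaks. That lower peaks lie nearer to a neighbour was already known from these data when the spacing limit was set, so these counts describe the table and were not tested.

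Levels of the 863 higher peaks were low in replete and high in deprived cells. In the authors' deposited table their deprived level had a median of 233 normalised reads (quartiles 178 and 316, range 78.1 to 796). Their replete level had a median of 5.03 normalised reads and reached 46.7. Across libraries, the deprived medians were 248 reads in A, 212 in B and 206 in C, and the replete medians 11, 0 and 0. Under the authors' scaling, the lowest deprived library exceeded the highest replete one in 863 of 863 peaks. The list was made by a test on these same libraries, at a background of 99.7% passing, so this count says nothing particular about close spacing. The median coefficient of variation among deprived libraries was 9.86% per higher peak, against 8.90% in the other higher peaks.

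limma was run on log2 of the normalised recovered reads plus 1, over all 5375 listed peaks, with Benjamini-Hochberg adjustment. It called 860 of the 884 peaks higher and 19 lower, where the background over all listed peaks was 98.9% higher and 0.763% lower. The peaks that missed an adjusted p of 0.05 in limma were peak_92, peak_188, peak_4013, peak_535 and peak_2214, named because they were the exceptions. Their replete libraries were uneven, as in peak_188 with 50, 0 and 29 reads and peak_2214 with 132, 105 and 20. In peak_2214 and peak_535, both lower in deprived cells, the deprived libraries were uneven too, with 12, 19 and 0 and 22, 0 and 20 reads. Every library was next given the same total of recovered reads in the listed peaks, which is not its sequencing depth. Library totals made equal means this scaling from here on. Under it, limma called 229 of the 884 peaks higher and 53 lower, and 32 of those 53 are listed as higher. Over all 5375 listed peaks it then called 1334 higher and 211 lower. With library medians set equal it called 0 higher, 9 at an unadjusted p under 0.05, and 16 lower. The counts over all listed peaks were then 0 higher and 43 lower. Equal medians take out a difference shared by most peaks, so that setting cannot show one. The median log2 difference over all listed peaks moved from 6.57 to 4.28 and to -0.34 under these scalings, and that of the tightly spaced peaks from 6.40 to 4.03 and to -0.51.

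Of the higher peaks, 199 stood at 0 in all replete libraries, or 23.1%, against 21.9% of the other higher peaks. For them a fold can only be bounded, by setting the replete group as a whole to 3 reads. Under the authors' scaling the median bound was 235-fold (range 80.6-fold to 628-fold). With library totals made equal, the bounds lay between 1.61-fold and 12.6-fold (median 4.72-fold). In the other 664 higher peaks, the ratio of the group means had a median of 31.1 (quartiles 18.0 and 67.6). The corresponding median in the other listed peaks was 37.1. In the authors' deposited table, the fold change of the tightly spaced higher peaks had a median of 5.31 on the log2 scale, and that of the other higher peaks 5.52.

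The largest rises by the fold change in the authors' deposited table were both at peaks with no replete reads. peak_1722 on chromosome 17, from 426033 to 426433, had deprived reads of 608, 600 and 538 and no replete reads. Its log2 fold change was 11.34 (FDR 2.99e-19) in the authors' deposited table, and it was at least 628-fold higher under the authors' scaling and at least 12.6-fold higher with library totals made equal. Its close neighbour peak_1721 started 2091 bp to the left and had 230, 194 and 196 reads, again with none in replete cells. peak_46 on chromosome 1, from 297063 to 297463, had 652, 573 and 449 deprived reads against 0 in all replete libraries. It was at least 598-fold higher under the authors' scaling, and its log2 fold change was 11.27 in the authors' deposited table (FDR 7.57e-19).

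The strongest mark among these peaks was not the largest change. peak_2486 on chromosome 20, from 477825 to 478225, had deprived reads of 763, 822 and 696 and replete reads of 19, 15 and 0. Under the authors' scaling its deprived libraries lay above every replete one. Its log2 fold change was 6.16 (FDR 1.17e-12) in the authors' deposited table, and limma gave 6.96 ± 1.22 (SE, 3 against 3 libraries, adjusted p 0.00417). That call was lost with library totals made equal (3.35, limma adjusted p 0.330) and with library medians set equal (0.051, limma adjusted p 0.981). Its neighbour peak_2485, 1953 bp away, was also strong, with 586, 492 and 449 deprived reads and 10, 0 and 0 replete reads.

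The second comparison used ratios within a library, in which the scaling between libraries cancels. Mean reads per tightly spaced peak, divided by mean reads per other listed peak, gave ratios of 0.871 (A), 0.872 (B) and 0.871 (C) for the deprived libraries. For the replete libraries the ratios were 1.13 (A), 1.31 (B) and 1.38 (C). Tightly spaced peaks thus held less than their numerical share of reads in every deprived library and more than it in every replete library. The mean log2 ratio was -0.20 ± 0.00079 (SD, n = 3) in deprived and 0.34 ± 0.15 (SD, n = 3) in replete libraries. The difference of -0.54 had a 2-sided exact permutation p of 0.1 over the 6 libraries, the smallest that 3 against 3 allows, so it could not pass 0.05. Lower peaks were known from these data to lie nearer to a neighbour when the spacing limit was set. The test is therefore not independent of that choice.

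The contrast was much smaller without the 44 lower peaks, which were left out of both kinds of peak. The 21 lower peaks that were tightly spaced carried 16.9%, 37.0% and 38.7% of the reads of the tightly spaced peaks in replete libraries A, B and C. The corresponding shares in deprived cells were 0.156%, 0.0712% and 0.0789%. With peaks higher in deprived cells alone, the replete ratios were 1.00, 0.929 and 0.987 and the deprived ratios 0.887, 0.888 and 0.887. The difference in mean log2 ratio was then -0.13. This selection used the direction of change in the same 6 libraries, so the value is a description with no test. In replete library A the higher peaks of both kinds had the same mean, 15.7 reads per peak.

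**Figure D2:**
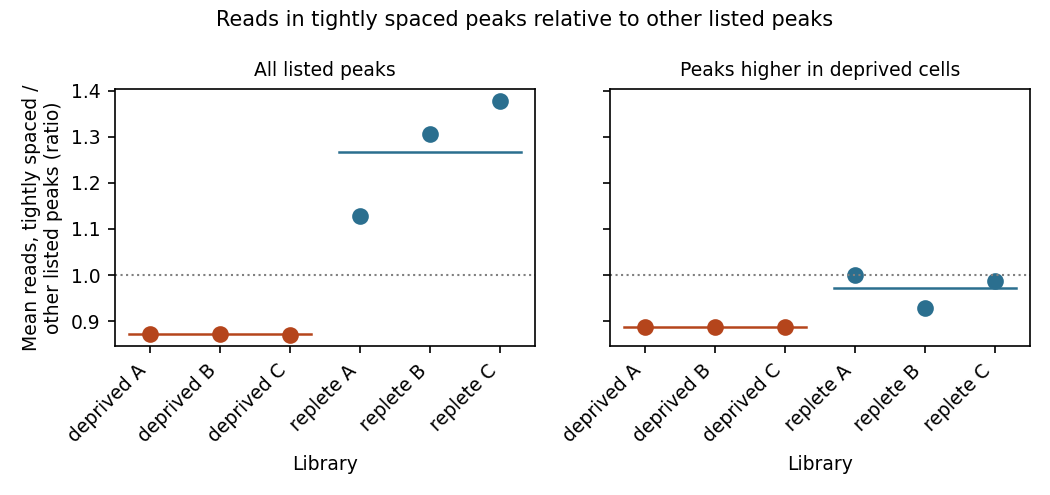
Mean reads per tightly spaced peak divided by mean reads per other listed peak (vertical axis, ratio) in each of the 6 libraries, with all listed peaks on the left and peaks higher in deprived cells on the right; lines are the geometric means of 3 libraries and the dotted line marks a ratio of 1. The deprived ratios sit at 0.871 to 0.872 on the left, below all replete ratios (1.13 to 1.38), and on the right the replete ratios come down to between 0.929 and 1.00.

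Deprived levels were lower at tighter spacing, as a description with no test. Among peaks higher in deprived cells, median reads in deprived library A were 231 at under 1500 bp, 247 at 1500 to 1800 bp, 249.5 at 1800 to 2000 bp and 263.5 at 2000 to 2200 bp. Beyond the limit they were 279 at 2200 to 3000 bp, 298 at 3000 to 5000 bp and 306 at 5000 bp or more. Library B ran from 185.5 in the tightest to 261 in the widest class, and library C from 194 to 257. The classes ranked in the same order in all 3 deprived libraries. In replete library A the medians stayed between 9 and 13 reads with no such order, and those of replete libraries B and C were 0 in every class.

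**Figure D3:**
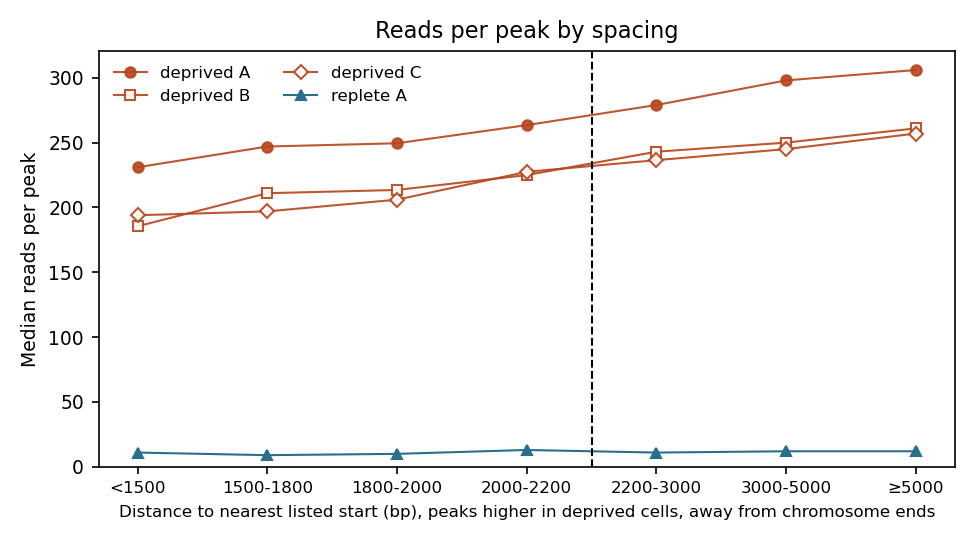
Median reads per peak (vertical axis) for peaks higher in deprived cells, by distance to the nearest listed start (horizontal axis, 7 classes in bp; the dashed line is the 2200 bp limit), in the 3 deprived libraries and replete library A. Deprived medians climb from 231, 185.5 and 194 reads at under 1500 bp to 306, 261 and 257 at 5000 bp or more, and replete library A stays between 9 and 13.

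Levels are also given by place within a run. The 36 higher peaks that stood inside runs of 3 or 4 had deprived medians of 215.5 reads in A, 183 in B and 175.5 in C. The 71 higher peaks at the outer places of those runs had 263, 225 and 216, and the 756 higher peaks in runs of 2 had 248, 212 and 206. In the 28 runs of 3 whose peaks were all higher, the inner peak was the lowest in all deprived libraries in 10 runs and the highest in 4. These counts are small and were not tested.

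The longest runs held 4 peaks each. The most compact was on chromosome 9, with starts at 873529, 875485, 877133 and 879181. Deprived reads in libraries A, B and C were 248, 313 and 254 in peak_5329 and 287, 253 and 253 in peak_5330. They were 212, 208 and 194 in peak_5331 and 127, 140 and 141 in peak_5332. Mean deprived levels were 285, 276, 214 and 143 normalised reads along the run, lowest at the last peak.

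Replete reads differed more along that run. They were 0, 11 and 5 in peak_5329, 0 in all libraries in peak_5330, 0, 3 and 0 in peak_5331, and 57, 2 and 7 in peak_5332. Log2 fold changes were 5.68, 10.23, 7.64 and 2.75 in the authors' deposited table, with FDR values from 3.42e-16 to 0.00651. For peak_5332 limma gave 3.72 ± 1.11 (SE, 3 against 3 libraries, adjusted p 0.0219). Leaving out deprived library A, B or C or replete library C raised that adjusted p to between 0.0613 and 0.0685, and with library totals made equal the value turned to -1.38. The calls of peak_5329 (1.91, limma adjusted p 0.556) and peak_5331 (4.67, limma adjusted p 0.151) were also lost with equal totals.

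The second run by compactness was on chromosome 7, with starts at 907966, 910090, 911924 and 913770. Its first peak, peak_4859, had 281, 244 and 242 deprived reads, and the last, peak_4862, had 138, 164 and 137. The inner peaks had 172, 153 and 170 in peak_4860 and 189, 126 and 122 in peak_4861. Replete reads were 18, 29 and 0 in peak_4859, were found only in library A in the inner peaks (32 and 35 reads), and were 0 in peak_4862. The authors' deposited table gave log2 fold changes of 4.13, 3.95, 3.63 and 9.40 along the run. In limma the inner peaks gave 5.81 ± 1.47 (SE, adjusted p 0.0127) and 5.56 ± 1.51 (SE, adjusted p 0.0160). For peak_4861 the adjusted p rose to between 0.0515 and 0.0564 without any 1 of the deprived libraries, and for peak_4859 it rose from 0.0144 to 0.0502 without deprived library A. With library totals made equal, peak_4859 (1.49, limma adjusted p 0.658), peak_4860 (3.74, limma adjusted p 0.292) and peak_4861 (limma adjusted p 0.323) all lost their calls.

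The remaining runs of 4 were on chromosome 5, with starts from 1335722 to 1341705, and on chromosome 17, with starts from 660958 to 667067. The chromosome 17 run is described after its values were seen, because 1 of its inner peaks was lower in deprived cells. That peak, peak_1771, had 15, 10 and 10 deprived reads against 107, 110 and 114 replete reads. Its neighbours peak_1770 and peak_1772 had 218, 201 and 174 and 329, 238 and 257 deprived reads and none in any replete library. The log2 fold changes of the 4 peaks were 4.50, 9.81, -3.12 and 10.27 in the authors' deposited table, so the direction switched and switched back within 6510 bp.

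The third comparison was between the peaks of a pair. Within each deprived library the right peak was divided by the left, and limma was fitted to these log2 ratios over all 5345 neighbouring pairs, with 3 libraries and Benjamini-Hochberg adjustment. The peaks of 339 of the 462 close pairs differed at an adjusted p under 0.05, or 73.4%, against a background of 72.4% over all neighbouring pairs. Of the 437 close pairs in which both peaks were higher in deprived cells, 314 differed, or 71.9%, against 72.0% of all such neighbouring pairs. The share in close pairs was near the background in both counts, but it was lower in the closest pairs. Among close pairs with both peaks higher, 21 of 35 differed at under 1500 bp and 76 of 110 at 1500 to 1800 bp. At 1800 to 2000 bp 95 of 131 differed, and at 2000 to 2200 bp 122 of 161. Beyond the limit the counts were 569 of 742, 1184 of 1672 and 1702 of 2381, split at 3000 and 5000 bp. The trend with distance was not tested. The right peak was the stronger in 151 and the left in 163 of the 314 pairs.

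The size of these differences was moderate. In close pairs with both peaks higher in deprived cells, the stronger peak exceeded the weaker by a median of 1.50-fold (quartiles 1.21-fold and 1.98-fold, highest 4.90-fold). In the other 4820 neighbouring pairs of that kind the median was 1.47-fold. The difference was under 0.5 on the log2 scale in 184 of the 437 close pairs and 1 or more in 108. By library, the median stronger and weaker peaks of a close pair had 323 and 196 reads in deprived library A, 271 and 164 in B, and 269 and 163 in C. Both values were below those of the other neighbouring pairs, which had 366.5 and 226 in library A.

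Within-pair differences were much alike in the 3 deprived libraries. The same peak was the stronger in all 3 in 358 of the 437 close pairs, or 81.9%, and in 83.3% of the other neighbouring pairs. Across the 437 pairs the log2 ratios had Pearson's r of 0.915 between libraries A and B, 0.908 between A and C and 0.899 between B and C, given as a description because pairs are not replicates and the libraries share the same peaks. The levels of left and right peaks were nearly unrelated across these pairs, with Spearman's rho of -0.089, -0.052 and -0.054 in libraries A, B and C. They were nearly unrelated in the other neighbouring pairs too, with rho of 0.0012, -0.0092 and -0.011.

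**Figure D4:**
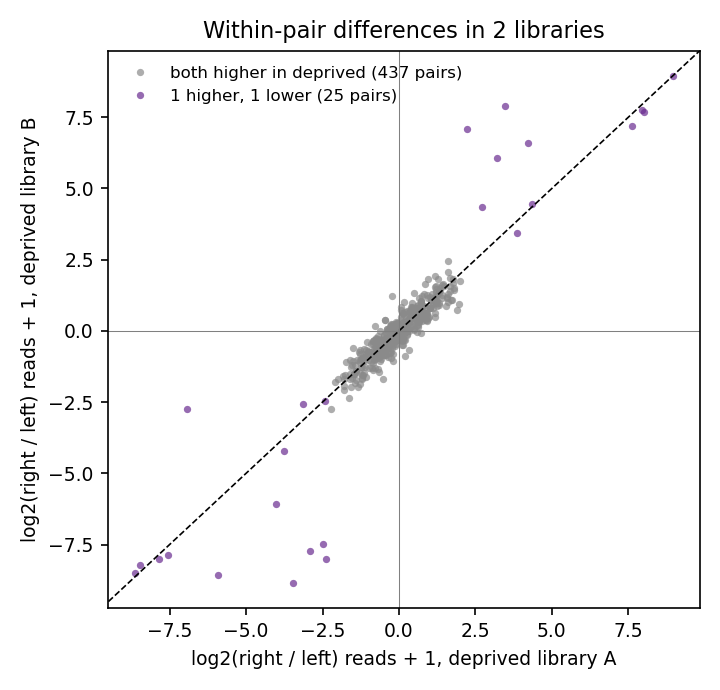
Log2 ratio of right to left peak (reads plus 1) for each of the 462 close pairs, in deprived library A (horizontal axis) and deprived library B (vertical axis); the dashed line marks equal values. The 437 pairs with both peaks higher in deprived cells lie along the line (r = 0.915), and the 25 pairs with 1 peak lower in deprived cells each lie in the same quadrant in both libraries and reach far beyond that cloud, although the nearest of them overlap its ends.

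The direction of these contrasts was next compared with replete reads. In replete library A, 194 of the 437 pairs had at least 20 reads, unequal between the peaks, and a called difference of the same sign in all deprived libraries. The peak that was stronger in deprived cells was also the stronger in replete library A in 101 of those 194 pairs, or 52.1%. The counts were 28 of 55 in replete library B and 17 of 29 in library C. In the other neighbouring pairs the share was 51.4% in replete library A. Both peaks had reads in replete library A in 48.7% of close and 49.2% of other neighbouring pairs, in library B in 11.4% and 11.2%, and in library C in 5.49% and 5.81%. With totals of 19082 to 89564 reads, the replete libraries left many of these ratios to a few reads.

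The 3 closest pairs illustrate the range. peak_4551 and peak_4552 on chromosome 6, from 607668 to 608068 and from 608464 to 608864, had starts 796 bp apart. The left peak had 191, 176 and 180 deprived reads and the right 124, 84 and 104, a log2 difference of -0.82 ± 0.12 (SE, limma adjusted p 0.000681). The left peak was the stronger in each deprived library. It was also the stronger in replete cells, with 30, 3 and 16 against 13, 0 and 0 reads.

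Next were peak_1211 and peak_1212 on chromosome 14, from 538101 to 538501 and from 538931 to 539331, 830 bp apart. They had 122, 104 and 76 against 128, 114 and 135 deprived reads, and 0 against 9, 0 and 0 replete reads. The right peak was slightly higher in libraries A and B and clearly so in C. The log2 difference of 0.34 ± 0.16 (SE, limma adjusted p 0.0945) did not pass over all neighbouring pairs, and its adjusted p was 0.0483 when only pairs with both peaks higher in deprived cells were fitted. Then came peak_2260 and peak_2261 on chromosome 2, with starts at 947856 and 948745, 889 bp apart. They had 247, 227 and 124 against 91, 98 and 112 deprived reads, a log2 difference of -0.93 ± 0.23 (SE, limma adjusted p 0.00938), in which library C showed little contrast.

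The most uneven pairs with both peaks higher in deprived cells, picked by this value, were between 2147 and 2182 bp apart. On chromosome 7, peak_4875 had 428, 344 and 314 deprived reads and peak_4876 had 91, 51 and 82, with starts at 992946 and 995128. The log2 difference was -2.29 ± 0.16 (SE, limma adjusted p 4.79e-05). On chromosome 3, peak_3653 had 460, 349 and 355 reads and peak_3654 had 131, 91 and 49, with starts at 704832 and 706979 and a difference of -2.19 ± 0.20 (SE). On chromosome 19, peak_2041 had 662, 607 and 581 reads and peak_2042 had 188, 142 and 135, with starts at 668259 and 670419 and a difference of -2.00 ± 0.11 (SE). In all 3 pairs the left peak exceeded the right in every deprived library, and no replete library had more than 20 reads in any of these peaks.

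At the other extreme, 3 pairs differed by under 0.01 on the log2 scale, also picked by value. peak_328 and peak_329 on chromosome 10, with starts at 119835 and 121747, had 261, 202 and 164 against 271, 213 and 150 deprived reads. peak_336 and peak_337, with starts at 179551 and 181403 on chromosome 10, had 326, 282 and 321 against 367, 313 and 258. peak_4632 and peak_4633 on chromosome 6, with starts at 1032688 and 1034810, had 505, 493 and 452 against 560, 458 and 443. Their SEs were 0.10 to 0.13 and their limma adjusted p-values 0.970 to 0.995, and which peak was ahead varied between libraries. Replete reads were 0, 0 and 3 in peak_4632 and 39, 0 and 0 in peak_4633. They were 35, 0 and 0 in peak_328 and 26, 10 and 17 in peak_329, and 12, 36 and 0 in peak_336 and 44, 0 and 0 in peak_337. Which peak had more replete reads also varied between libraries in each of these pairs.

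A separate kind of close pair joined 1 lower and 1 higher peak, by their level in deprived against replete cells. There were 25 such pairs among the 462 close pairs and no close pair with both peaks lower. Of neighbouring pairs farther apart, 18 of 760 at 2200 to 3000 bp joined a lower and a higher peak. At 3000 to 5000 bp 16 of 1688 did, and at 5000 bp or more 28 of 2409. The other 742, 1672 and 2381 pairs had both peaks higher, so pairs with both peaks lower were absent there too. The 25 close pairs involved all 21 lower peaks, 4 of which had a close neighbour on both sides, and no run held more than 1 lower peak. By the distance of a peak to its nearest neighbour, 8 of 86 peaks were lower at under 1500 bp (9.30%) and 8 of 235 at 1500 to 1800 bp (3.40%). At 1800 to 2000 bp 1 of 253 was lower (0.395%), and at 2000 to 2200 bp 4 of 310 (1.29%). Beyond the limit the shares were 0.663% at 2200 to 3000 bp and 0.421% at 3000 to 5000 bp. The lower peaks were on 13 chromosomes, with 3 each on chromosomes 1 and 2.

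In replete cells the lower peaks had 94 to 198 reads in replete library A (median 130), 64 to 140 in B (median 112) and 20 to 130 in C (median 75). In the deprived libraries A, B and C their medians were 16, 0 and 5 reads, with at most 53, 41 and 26. Their 25 higher neighbours had deprived medians of 255 (A), 235 (B) and 224 (C) reads, and every replete median was 0. In the authors' deposited table the neighbours' deprived level had a median of 240 normalised reads (range 154 to 513), and the median over all higher tightly spaced peaks was 233.

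The order within such a pair was reversed between the conditions. The neighbour had more reads than the lower peak in 25 of 25 pairs in each deprived library, and fewer in 25 of 25 pairs in each replete library. No scaling between libraries can alter that order, since both peaks were read from the same library. The pairs were singled out by their opposite calls at a background of 98.9% higher and 0.816% lower, so the counts are a description and were not tested. Mean levels under the authors' scaling give the same order for any lower and any higher tightly spaced peak. Lower peaks had at most 31.5 deprived and at least 69.3 replete normalised reads, and higher peaks at least 78.1 and at most 46.7. The order is thus not particular to close neighbours. Of the 25 neighbours, 11 stood at 0 in all replete libraries, and the highest single value there was 47 reads.

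**Figure D5:**
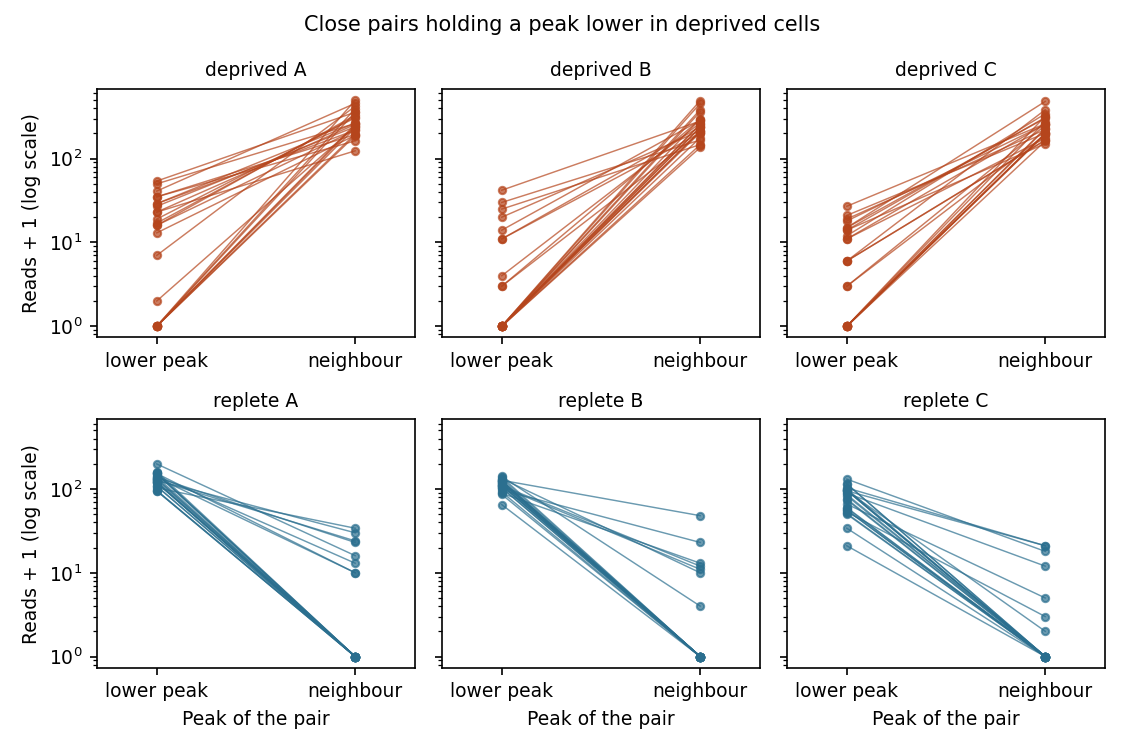
Reads plus 1 (vertical axis, log scale) of the lower peak and its close neighbour (horizontal axis) in the 25 close pairs that hold a peak lower in deprived cells, 1 panel per library; each line joins the peaks of a pair. All 25 lines rise in each deprived library and fall in each replete library.

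The closest of these pairs were peak_2214 and peak_2215 on chromosome 2, from 758122 to 758522 and from 759126 to 759526, 1004 bp apart. The lower peak, peak_2214, had 12, 19 and 0 deprived and 132, 105 and 20 replete reads. Its neighbour had 189, 214 and 194 deprived and 0, 10 and 0 replete reads. The order held in every library, although replete library C contributed only 20 reads. In the deprived libraries the log2 difference was 4.97 ± 0.72 (SE, limma adjusted p 0.000689). Its size rested on the pseudocount of 1 in library C, where the lower peak had 0 reads. It was 3.65 without library C, 5.74 without B and 5.52 without A, and 6.13 with a pseudocount of 0.1 and 2.90 with 20, each with a limma adjusted p under 0.05.

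On chromosome 11, peak_535 from 75306 to 75706 and peak_536 from 76451 to 76851 were 1145 bp apart. The lower peak had 22, 0 and 20 deprived and 95, 96 and 33 replete reads, and its neighbour had 255, 235 and 200 against 0, 22 and 0. Both peaks kept their opposite order in all libraries. In the authors' deposited table the log2 fold changes were -2.19 and 4.92. limma did not call the lower peak between the conditions (adjusted p 0.0857).

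On chromosome 5, peak_4376 and peak_4377 started 1164 bp apart, at 1059610 and 1060774. The lower peak had 16, 2 and 0 deprived and 102, 138 and 99 replete reads, and its neighbour 316, 292 and 320 deprived and 33, 0 and 0 replete reads. Here the replete libraries were more even among themselves. The log2 fold changes were -4.08 and 4.76 in the authors' deposited table.

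On chromosome 3, peak_3550 from 110461 to 110861 and peak_3551 from 111823 to 112223 were 1362 bp apart and mutually exclusive in the recovered reads. peak_3550 had 0 reads in each deprived library and 138, 91 and 85 in the replete ones. peak_3551 had 257, 204 and 200 deprived reads and no replete reads. The log2 fold changes were -8.68 (FDR 2.98e-12) and 9.96 (FDR 2.10e-15) in the authors' deposited table. With the deprived group as a whole set to 3 reads, peak_3550 was at least 95.2-fold lower in deprived cells under the authors' scaling. With library totals made equal, a scaling that raised replete reads relative to deprived ones, it was at least 4282-fold lower.

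The same pattern was seen at the largest fall by the fold change in the authors' deposited table. peak_2230 on chromosome 2, from 818217 to 818617, had 0 reads in each deprived library and 153, 117 and 73 in the replete libraries. Its neighbour peak_2229, which started 1433 bp to the left, had 187, 235 and 276 deprived reads and none in replete cells. The log2 fold change of peak_2230 was -8.78 (FDR 2.71e-12) in the authors' deposited table. It was at least 103-fold lower in deprived cells under the authors' scaling and at least 4464-fold lower with library totals made equal. The remaining lower peaks with 0 reads in every deprived library were peak_194 and peak_257, both on chromosome 1 and named after their values were seen. With library totals made equal, the bound of peak_257 was 4716-fold, above that of peak_2230, so the order of these falls depends on the scaling. peak_257 lay between 2 close neighbours, at 1663 bp on its left and 1744 bp on its right, with 231, 254 and 199 and 247, 213 and 197 deprived reads and none in replete cells.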

How the data were processed

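Lactyllysine ChIP-seq was analysed from 1 table of 5375 differential peaks. Tools named in the submitters' processing notes are MACS2, deepTools, Picard, BWA and Trim Galore. Their versions, the genome build, the differential tool and any control subtraction are not stated there or in the labels. The authors deposited log2 mean levels (over both groups and per group), a log2 fold change, and a p-value and FDR per peak; log2 means are never listed below 0. Positive fold changes mean higher in deprived cells, as checked against the group means.

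Reads per library were recovered by finding the whole numbers that, times 1 step per library, sum to each group mean. The steps were those that fit the 40 lowest values of a group, sought between 0.2 and 0.6. Group means listed at 0 were rebuilt from the other columns. Each of the 5375 peaks had exactly 1 solution in both groups (relative tolerance 4e-13 plus 1e-12), and 0 of 500 altered values per group had one. A recovered 0 is what entered the authors' mean and need not be an absence of sequenced reads.

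Tests were limma 3.58.1 (R 4.3.3) with a pseudocount of 1, a common prior variance and Benjamini-Hochberg adjustment over the whole table, and an exact permutation test over libraries. Differences from limma are on the log2(value + pseudocount) scale. The authors' fold changes are given as deposited, and the bounds have no pseudocount. p-values measure the spread between libraries; the labels describe cultures in triplicate. Floors of 3 reads cover counting error only. Python 3.11.15, numpy 2.4.6, scipy 1.17.1 and pandas 2.3.3 were used, and the fits were checked on simulated data. The simulation used read levels of the deprived libraries in both groups, so it did not cover the sparse replete reads. Alternatives covered distance limits, the margin, pseudocounts, scaling, low values, the variance trend and each library left out.

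The peaks, spacing limit and comparisons were chosen with earlier results of these data known. Named peaks were the 3 closest pairs, the 2 most compact of the longest runs, the 4 closest pairs with a lower peak, the 3 most and least even pairs, the highest deprived level, the 2 largest changes per direction and those at the limit; others are marked as chosen by value.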

Additional observations from a re-analysis of the deposited data

Results flagged for a closer look

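The ratio of mean reads per tightly spaced peak to mean reads per other listed peak was below 1 in all 3 deprived libraries and above 1 in all 3 replete libraries, which marked it for a closer look. The difference of the mean log2 ratios, deprived minus replete, was -0.54, with a 2-sided exact permutation p of 0.1, the smallest possible here. The spacing limit was set with the nearness of lower peaks already known, so this p is not independent of that choice. With peaks higher in deprived cells alone the difference was -0.13, and the replete ratios no longer lay above 1 in every library (1.00, 0.929 and 0.987). That selection used the direction of change in the same libraries, so the smaller value is a description.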

How the results depend on the processing

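The number of tightly spaced peaks was 86 with a limit of 1500 bp and 2090 with 3000 bp, and the number of lower ones 8 and 29. limma called 229 of the 884 higher and 53 lower with libraries scaled to equal reads, and 0 higher with library medians set equal (9 at an unadjusted p under 0.05). Over all 5375 listed peaks it called 1334 higher and 211 lower with equal reads, and 0 higher with equal medians, which take out a difference shared by most peaks. With peaks below the lower quartile of the mean level left out, 585 tightly spaced peaks were tested, all 585 were called higher and 0 lower. None of the 21 lower ones passed that filter, so the 0 was fixed by it. Over all listed peaks 4026 were then called higher and 0 lower. With a limit of 1500 bp 29 of 43 close pairs differed within the pair, against 3872 of all 5345 neighbouring pairs. Of these close pairs, 8 joined a lower and a higher peak, and 21 of the other 35 differed. The remaining 43 values for counts and ratios kept their direction and stayed within 1.5 times for counts; the ratio contrast ran from -1.62 with 1500 bp to -0.35 with 3000 bp, and was -0.10 with 1500 bp and higher peaks alone, a setting added after seeing the data. Leaving out 1 library gave 777 to 861 peaks called higher, 13 to 18 lower, 309 to 318 differing close pairs and a ratio contrast of -0.62 to -0.48. Over all listed peaks the counts were then 4820 to 5318 higher and 29 to 38 lower. The differing close pairs were 66.9% to 68.8%, against 63.7% to 65.4% of all neighbouring pairs. Of 284 values for named peaks and pairs 246 held, 25 lost their call, 1 gained it and 12 reversed; the cause was not tested. With equal medians these were peak_4859 (-1.79), peak_4860 (-1.10), peak_4861 (-1.35), peak_5329 (-0.82), peak_5332 (-3.19) and peak_1738 (-0.70), and with equal reads peak_5332 (-1.38). Of the near-even pairs, that of peak_328 ran from -0.037 to 0.065 with 1 library left out, that of peak_336 from -0.082 to 0.16 and that of peak_4632 from -0.067 to 0.060; they were negative without deprived library A and, for the first pairs (-0.037 and -0.072), without B (without A -0.026 and -0.082). No paired analysis was possible because the group means cannot be tied to numbered cultures. The few replete reads in these peaks limit folds to bounds at zeros.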
